A study of Mus musculus with 4 samples.

Results

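Fibroblast growth factor (FGF) signalling genes were examined in hair cells (HCs) and in the other epithelial cells of the newborn mouse inner ear. The set held 10 gene symbols chosen by name for their place in the pathway: the ligands *Fgf3*, *Fgf7*, *Fgf8* and *Fgf10*, the receptors *Fgfr1*, *Fgfr2* and *Fgfr3*, and the response genes *Spry2*, *Etv4* and *Etv5*. Of these, 8 matched 1 gene each among the 12814 genes of the expression table, and *Fgf8* and *Etv4* were not analysed here. The symbols, and the gene lists below, were chosen with earlier results of these data known.

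FGFs are secreted proteins that bind receptor tyrosine kinases together with heparan sulfate chains on the cell surface, and the bound receptor passes its signal through adaptor proteins to the MAP kinases. The pathway switches on ETS family transcription factors such as ETV4 and ETV5, and also its own inhibitors, the Sprouty proteins and dual-specificity phosphatases. In the inner ear, FGF3 and FGF10 act in the induction and shaping of the otic vesicle, FGFR2 is needed for the outgrowth of the vestibular structures, FGFR1 for the formation of the cochlear sensory cells, and FGFR3 for the differentiation of pillar cells, which stand between the inner and outer HCs.

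The cells came from *Atoh1/nGFP* mice of the C57BL/6 background at postnatal day 1, in which a nuclear green fluorescent protein (GFP) driven by an *Atoh1* enhancer marks HCs. HCs were sorted as cells positive for GFP and for CD326 (the epithelial adhesion protein encoded by *Epcam*), and the epithelial non-sensory cells (ENSCs) as CD326-positive cells without GFP, from the cochlea and from the vestibular system of the same genotype. RNA-seq gave 4 groups, cochlear HCs, cochlear ENSCs, vestibular HCs and vestibular ENSCs, and inner ears of several mice were pooled for a replicate. The table holds 1 column for each group, so no spread between replicates could be computed, no difference between 2 groups could be tested and every comparison below sets 1 library against another. ENSCs are all CD326-positive cells outside the HC gate and therefore a mixture of epithelial cell types.

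The unit is a signal: a read count per gene after quantile normalization across libraries, with lower values set to a floor of 20. Each column therefore summed to 7830343 with a median of 120, 1412 genes stood at the floor in each, and the sequencing depth of a library can no longer be read from its column. Low signals did not rank genes reliably up to 24.25 in cochlear HCs, 22.75 in cochlear ENSCs, 30.5 in vestibular HCs and the floor of 20 in vestibular ENSCs; folds against a signal in that range are given as lower bounds computed against its top. A difference of at least 3-fold was counted, the ratio the study used. Because RNA was measured in bulk, fewer cells of a type and less RNA per cell cannot be told apart. The identity of the sorts was checked with marker genes. All 8 HC markers were at least 3-fold higher in the HC library of each organ, and their signals summed to 35067 against 1803 for cochlear HCs and ENSCs and to 30014 against 1427 for vestibular HCs and ENSCs. *Epcam*, the gene for the sorting antigen, had a signal of 1016.75 in the HCs and 3376.25 in the ENSCs of the cochlea, and of 1139.25 and 7511 in those of the vestibular system. Of the glial markers 4 of 5 were in the table, with sums of 929 and 2031 in cochlear HCs and ENSCs and of 487 and 3378 in vestibular HCs and ENSCs. Endothelium, blood and melanocytes were each represented by 1 marker, of which *Kdr* had 1461.75 in vestibular ENSCs and at most 29.75 elsewhere, *Cd68* did not exceed 24.75 and *Mitf* did not exceed 247.5.

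The 8 genes differed widely in level and in pattern. Divided by exonic length, so that genes can be set side by side, *Fgf10* was the highest of them in cochlear HCs (1060 per kb), cochlear ENSCs (1732 per kb) and vestibular HCs (1498 per kb), whereas *Spry2* was the highest in vestibular ENSCs (530 per kb, against 149 per kb for *Fgf10*). *Spry2* came next in the first 3 libraries. *Fgf3*, near the floor, did not exceed 10.1 per kb. The span from the lowest to the highest library reached 67.8-fold for *Fgfr2*, 11.6-fold for *Fgf10*, at least 7.88-fold for *Fgf7*, 7.17-fold for *Fgfr3*, 4.16-fold for *Etv5* and 4.01-fold for *Fgfr1*, but 1.73-fold for *Spry2*. No span is given for *Fgf3*, which was at the floor in 3 libraries. Such a span of at least 3-fold was found in 46.5% of all genes.

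**Figure D1:**
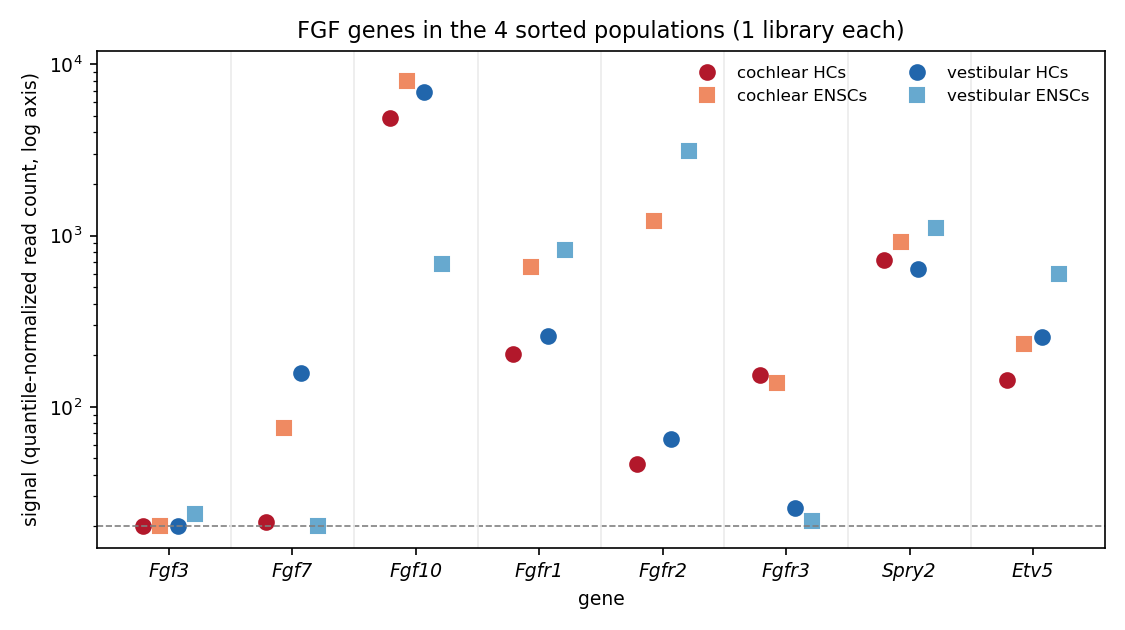
Signal of the 8 FGF genes in the 4 libraries, on a log axis; each point is 1 library, circles are HCs, squares are ENSCs, red tones are the cochlea and blue tones the vestibular system, and the dashed line is the floor of 20. *Fgfr1* and *Fgfr2* have both squares above both circles, *Fgf10* has 1 low point in vestibular ENSCs (684), and *Fgfr3* separates cochlear (154.25 and 137.25) from vestibular libraries (25.75 and 21.5).

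Among the ligands, *Fgf10* was abundant in 3 of the 4 libraries. *Fgf10* (ENSMUSG00000021732, 7 exonic blocks on the plus strand, chr13:119458598-119580922 in mm9) encodes a secreted FGF that signals mainly through the IIIb form of FGFR2. Its signal was 4877.75 in cochlear HCs, 7968 in cochlear ENSCs, 6891 in vestibular HCs and 684 in vestibular ENSCs. The vestibular ENSC library alone was low, and the highest of the other 3 was 1.63-fold above the lowest. Vestibular HCs exceeded vestibular ENSCs 10.1-fold (log2 ratio 3.33), and 401 genes had a higher ratio there. Cochlear HCs were lower than cochlear ENSCs by less than 3-fold (log2 ratio -0.71), so the log2 ratio of HCs over ENSCs was 4.04 higher in the vestibular system than in the cochlea. Cochlear ENSCs exceeded vestibular ENSCs 11.6-fold (log2 ratio 3.54, with 92 genes higher), and the HCs of both organs differed by a log2 ratio of -0.50. The vestibular HC to ENSC ratio and the ratio between the ENSC libraries share the vestibular ENSC library and are not separate evidence. With trends on gene length and GC content removed by local regression, these log2 ratios were 2.72 and 2.91, still past 3-fold.

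The promoter window of *Fgf10* is shown with those of *Fgfr2*, the gene with the widest span, *Fgfr3*, the gene that separated the organs, and *Spry2*, the evenly expressed response gene, so that the strongest patterns can be read beside their sequence. Each window runs from 250 bases before to 50 bases after the transcription start site in RefSeq on the build GRCm38.p6, which is not the build of the expression table, and is written 5′ to 3′ on the strand of the gene. Of the 10 genes, 7 had a window, and no window was used for *Fgf8*, *Fgfr1* and *Etv4*. Capitals mark matches, searched on both strands, to the E-boxes CAGATG and CAGCTG, the ETS core CCGGAA and the GC box GGGCGG (which reads CCGCCC on the other strand).
*Fgf10*, chr13:118714449-118714748, plus strand: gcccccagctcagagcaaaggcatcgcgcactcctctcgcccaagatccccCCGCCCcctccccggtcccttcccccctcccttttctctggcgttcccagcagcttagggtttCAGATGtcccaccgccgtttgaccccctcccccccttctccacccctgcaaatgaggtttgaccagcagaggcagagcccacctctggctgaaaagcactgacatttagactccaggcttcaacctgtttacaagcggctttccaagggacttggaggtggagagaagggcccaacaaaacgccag
*Fgfr2*, chr7:130266759-130267058, minus strand: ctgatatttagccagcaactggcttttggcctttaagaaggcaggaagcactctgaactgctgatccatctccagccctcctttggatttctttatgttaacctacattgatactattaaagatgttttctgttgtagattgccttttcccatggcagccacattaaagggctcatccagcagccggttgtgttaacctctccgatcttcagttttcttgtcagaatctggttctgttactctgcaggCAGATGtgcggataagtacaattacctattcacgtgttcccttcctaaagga
*Fgfr3*, chr5:33721474-33721773, plus strand, window 1 of 2: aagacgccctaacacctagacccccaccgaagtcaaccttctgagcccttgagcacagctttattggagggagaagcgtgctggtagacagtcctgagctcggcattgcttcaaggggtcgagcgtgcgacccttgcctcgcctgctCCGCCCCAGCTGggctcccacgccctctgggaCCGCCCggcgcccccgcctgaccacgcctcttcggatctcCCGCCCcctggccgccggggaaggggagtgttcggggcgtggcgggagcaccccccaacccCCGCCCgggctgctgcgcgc
*Spry2*, chr14:105896770-105897069, minus strand: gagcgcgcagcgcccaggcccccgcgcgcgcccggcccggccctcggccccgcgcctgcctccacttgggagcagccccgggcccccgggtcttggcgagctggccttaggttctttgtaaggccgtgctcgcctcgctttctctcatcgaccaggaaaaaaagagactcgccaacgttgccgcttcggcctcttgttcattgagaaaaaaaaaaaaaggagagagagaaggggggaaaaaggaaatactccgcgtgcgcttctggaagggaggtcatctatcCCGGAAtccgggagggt

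The 4 windows differ in base composition and in the letters matched. *Fgf10* held CAGATG starting at position -136 from the start site and CCGCCC at -199, and *Fgfr2* held CAGATG at -2. *Fgfr3* held CAGCTG at -97, directly next to a CCGCCC at -103, and 3 more CCGCCC at -71, -31 and 30. In *Spry2* the only match was CCGGAA at 33. Among all 32851 windows, CAGATG was found in 17.2%, CAGCTG in 16.3%, CCGGAA in 14.9% and GGGCGG in 35.7%. GC content was 60.7% in the *Fgf10* window, 43.7% in that of *Fgfr2*, 69.7% in that of *Fgfr3* and 62.7% in that of *Spry2*, with a median of 52.7% over all windows. A match describes these letters and not a bound factor.

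Some markers of epithelial and neural cells were also lowest in vestibular ENSCs, among them 4 of the 9 supporting and other epithelial markers (*Sox2*, *Jag1*, *Lfng* and *Gjb6*) and all 5 neuronal markers in the table. So were 7 of the 8 HC markers and 3 of the 5 pillar and Deiters cell markers in the table. For some of these the order was not settled. *Gfi1* (22.5), *Tmc1* (22.25) and *Barhl1* (22.5) in cochlear ENSCs, and *Stmn2* (22) in vestibular HCs, lay in the range of unranked low values. *Sox2*, a transcription factor of the prosensory and supporting cells, had 2659.5, 2103.75 and 3960.75 in cochlear HCs, cochlear ENSCs and vestibular HCs and 465.75 in vestibular ENSCs. *Jag1*, a Notch ligand of the same cells, had 7815, 5297.5 and 1712.5 in these libraries and 761 in vestibular ENSCs. The 5 of 8 neuronal markers in the table summed to 9380, 5229 and 9661 in those 3 libraries and to 419 in vestibular ENSCs, and 4 of the 5 were at the floor there. *Isl1*, on that list and also a gene of the otic epithelium, made up 4976.25 of the sum in cochlear ENSCs and 339 in vestibular ENSCs. The other 4 were at 41 to 81.5 in cochlear ENSCs, where *Fgf10* was highest. *Nefl*, *Nefm* and *Snap25* had 2380.75, 1995.25 and 1291 in cochlear HCs and 2470, 2121.25 and 2090.5 in vestibular HCs. *Stmn2* had 30.75 and 22 in these HC libraries. Whether the HC signals of these markers came from neurons or from the HCs was not tested. The 9 supporting and other epithelial markers, which summed to 22437, 91489, 10317 and 26020 over the 4 libraries in the same order, did not all follow this course. *Otog*, a gene of the acellular membranes, and *Epcam* were highest in vestibular ENSCs (10905 and 7511), and *Tecta*, *Epyc* and *Gjb2* were lowest in vestibular HCs. The part of cell composition in the *Fgf10* difference was not tested.

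*Fgf7* was a weakly detected ligand with opposite ratios in the 2 organs. *Fgf7* (ENSMUSG00000027208, chr2:125860394-125916921, plus strand) encodes keratinocyte growth factor, which acts on epithelia through the IIIb form of FGFR2. Its signal was 21.25 in cochlear HCs, 75 in cochlear ENSCs, 157.5 in vestibular HCs and 20 in vestibular ENSCs. The first and the last lay in the range of unranked low values, leaving cochlear ENSCs and vestibular HCs as the libraries in which it was measured above that range. In the cochlea, HCs lay at least 3.09-fold below ENSCs, and in the vestibular system at least 7.88-fold above them. A ratio of at least 3-fold in opposite directions was found for 0.406% of all genes, and *Fgf7* was the only one of the 8 FGF genes among them. The cochlear difference, and with it the opposite directions past 3-fold, depended on the handling of low values: its log2 ratio was -0.58 with a floor of 50, -1.20 with a pseudocount of 20 and -0.53 with one of 100. Vestibular HCs were also at least 6.49-fold above cochlear HCs, and cochlear ENSCs at least 3.75-fold above vestibular ENSCs. The ENSC ratio had log2 values of 0.58, 1.25 and 0.54 under these 3 settings, and with a pseudocount of 100 the vestibular ratio of HCs over ENSCs (1.10) and that between the HC libraries (-1.09) came under 3-fold too. When the trends of the ratios with exonic length and with GC content were removed, the ENSC ratio came under 3-fold as well (log2 ratio 0.94). With 38.5% GC, *Fgf7* is GC-poor, the median being 48.8%, and the log2 ratios between the ENSC libraries fell with GC content (Spearman's rho = -0.453 across 10483 genes).

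*Fgf3* (ENSMUSG00000031074, chr7:152023988-152030341, plus strand), a ligand of early otic induction, was at the floor of 20 in cochlear HCs, cochlear ENSCs and vestibular HCs and at 23.5 in vestibular ENSCs. No difference was detectable at this level.

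**Figure D2:**
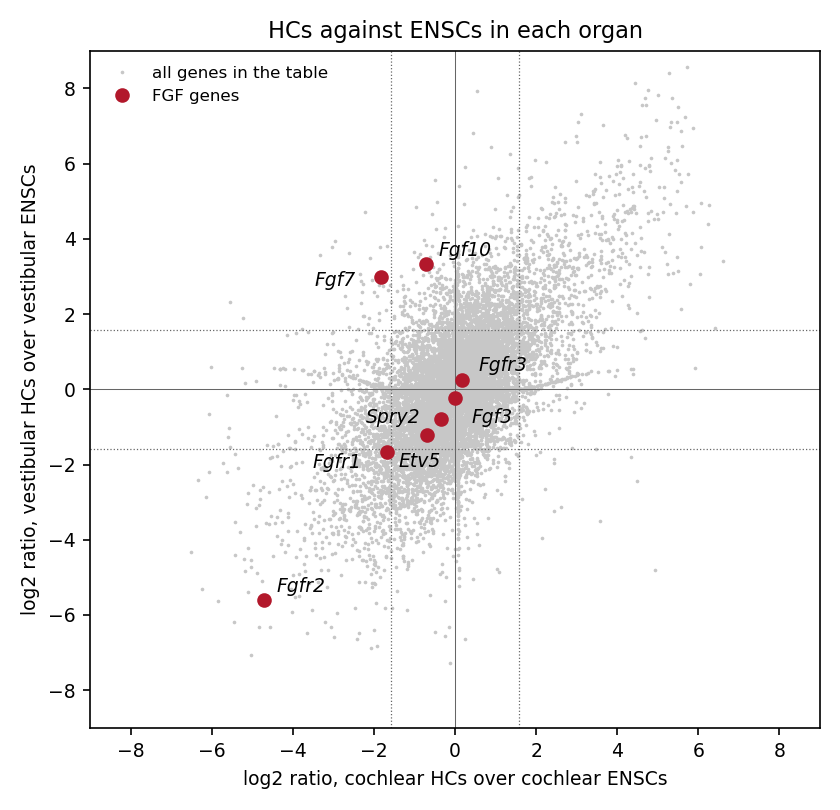
Log2 ratio of HCs over ENSCs in the cochlea (x axis) against the same in the vestibular system (y axis); grey points are all 12814 genes, red points the 8 FGF genes, and dotted lines mark 3-fold. *Fgfr2* lies at -4.71 and -5.60, *Fgfr1* just past the lower lines at -1.67 and -1.66, and *Fgf7* and *Fgf10* lie above the upper line in the vestibular system only.

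Among the receptors, *Fgfr2* showed the largest difference between HCs and ENSCs of the 8 genes in both organs. *Fgfr2* (ENSMUSG00000030849, chr7:137305965-140315033, minus strand) encodes the receptor whose IIIb form binds FGF3, FGF7 and FGF10 in epithelial cells. Its signal was 46.25 in cochlear HCs, 1214 in cochlear ENSCs, 64.5 in vestibular HCs and 3133.5 in vestibular ENSCs. Both HC libraries were low and both ENSC libraries high. HCs of the cochlea held 3.81% of the ENSC signal and those of the vestibular system 2.06%, which is 26.2-fold and 48.6-fold lower (log2 ratios -4.71 and -5.60). A lower ratio was found for 45 genes in the cochlea and for 28 genes in the vestibular system. Between the organs, cochlear ENSCs were 2.58-fold below vestibular ENSCs, and the HC libraries differed 1.39-fold. The gene model shares 314 of its 7796 exonic nt with *Ctbp2* on the same strand. *Ctbp2*, a gene of synaptic ribbons, was higher in HCs (503 and 581.25) than in ENSCs (185.25 and 280.25), and the part of the shared exons in the *Fgfr2* signal was not tested.

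*Fgfr1* was lower in HCs by about the same ratio in both organs. *Fgfr1* (ENSMUSG00000031565, chr8:26624126-26686186, plus strand) had a signal of 204.5 in cochlear HCs, 651.5 in cochlear ENSCs, 260.25 in vestibular HCs and 820.75 in vestibular ENSCs. Again both HC libraries lay below both ENSC libraries. Cochlear HCs were 3.19-fold and vestibular HCs 3.15-fold lower, close to the threshold, and 1074 and 1693 genes had a lower ratio. After correction for length and GC content the vestibular log2 ratio was -1.09, under 3-fold, and the cochlear one -1.72. Between the organs *Fgfr1* differed by log2 ratios of -0.35 in HCs and -0.33 in ENSCs, and the latter turned to 0.11 after the correction. A second *Fgfr1* entry of the annotation, not used here, shares 761 of the 8061 exonic nt.

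At least 3-fold lower signal in HCs of both organs was found for 4.66% of all genes, and for 2 of the 8 FGF genes, *Fgfr1* and *Fgfr2*. Most markers of inner ear mesenchyme were lower in HCs as well. Of 10 such markers 8 were in the table, of which 4 were at least 3-fold lower and 1 higher in cochlear HCs and 6 lower and 1 higher in vestibular HCs. The shares of all genes were 9.2% and 8.39% in the cochlea and 14.3% and 13.8% among vestibular cells. The signals of the 8 markers summed to 1548 in cochlear HCs, 19588 in cochlear ENSCs, 443 in vestibular HCs and 4336 in vestibular ENSCs. *Tbx18*, a defining mesenchymal gene, had 20 in each cochlear library, 20.5 in vestibular HCs and 54.75 in vestibular ENSCs, and *Pdgfra* was higher in HCs than in ENSCs of either organ (481.75 against 54.25 and 162.75 against 47.75). Between the ENSC libraries these markers went both ways, with 3 of the 8 at least 3-fold higher and 2 lower in the cochlea (7.8% and 7.94% of all genes), and *Lum* alone made up 12731.25 of the cochlear sum. The CD326 gate is meant to keep epithelial cells and to leave mesenchymal cells out. The part of these cells in the receptor differences was not tested.

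*Fgfr3* separated the organs and hardly the cell types. *Fgfr3* (ENSMUSG00000054252, chr5:34064373-34079716, plus strand) had a signal of 154.25 in cochlear HCs, 137.25 in cochlear ENSCs, 25.75 in vestibular HCs and 21.5 in vestibular ENSCs. Both cochlear libraries were above both vestibular ones, and the vestibular HC signal lay in the unranked range. Cochlear HCs stood at least 5.06-fold above vestibular HCs, and cochlear ENSCs 6.38-fold above vestibular ENSCs. A cochlear excess of 3-fold or more in both cell types was found for 1.14% of all genes, among the 8 FGF genes for *Fgfr3* alone. That call was lost with a floor of 50 (ENSC log2 ratio 1.46) and with a pseudocount of 100 (log2 ratios 1.02 in HCs and 0.97 in ENSCs). HCs and ENSCs of the cochlea differed by a log2 ratio of 0.17 and those of the vestibular system by 0.26, the latter from 2 signals near the floor (1.32 after correction for length and GC content). The ENSC ratio of 2.67 became 3.49 after that correction.

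*Fgfr3* is known in the cochlea as a gene of pillar and Deiters cells, and their other markers behaved in different ways. Of 6 markers 5 were in the table, and their signals summed to 2731 in cochlear HCs, 2881 in cochlear ENSCs, 2619 in vestibular HCs and 1806 in vestibular ENSCs. *Lgr5*, a gene of cochlear supporting cells, had 897.75, 748.5, 123.25 and 30 in that order, the same order of libraries as *Fgfr3*. *Hey2* had 643.25, 508, 493.75 and 407.75. The other 3 ran differently. *Ngfr*, a pillar cell gene, had 20, 65.75, 20.25 and 20.5, *Prox1* had 1146.75, 1407.75, 1722 and 924.75, and *S100b*, higher in the vestibular libraries, had 23.5, 150.5, 260 and 422.75. The part of pillar and Deiters cells in the cochlear HC signal of *Fgfr3* was not tested.

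Set side by side per exonic length, the receptor with the highest signal differed between the cell types. In cochlear HCs *Fgfr1* had 25.4 per kb, *Fgfr3* 22.4 per kb and *Fgfr2* 5.93 per kb. There *Fgfr1* exceeded *Fgfr3* by only 1.13-fold. In vestibular HCs *Fgfr1* led with 32.3 per kb over *Fgfr2* with 8.27 per kb. *Fgfr1* was thus 4.28-fold above *Fgfr2* in cochlear HCs and 3.90-fold above it in vestibular HCs. In ENSCs the order was turned, and *Fgfr2* stood 1.93-fold above *Fgfr1* among cochlear cells (156 against 80.8 per kb) and 3.95-fold above it among vestibular ones (402 against 102 per kb). The exonic length of *Fgfr2* includes a long read-through transcript, and no replicate gives the spread of these ratios.

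**Figure D3:**
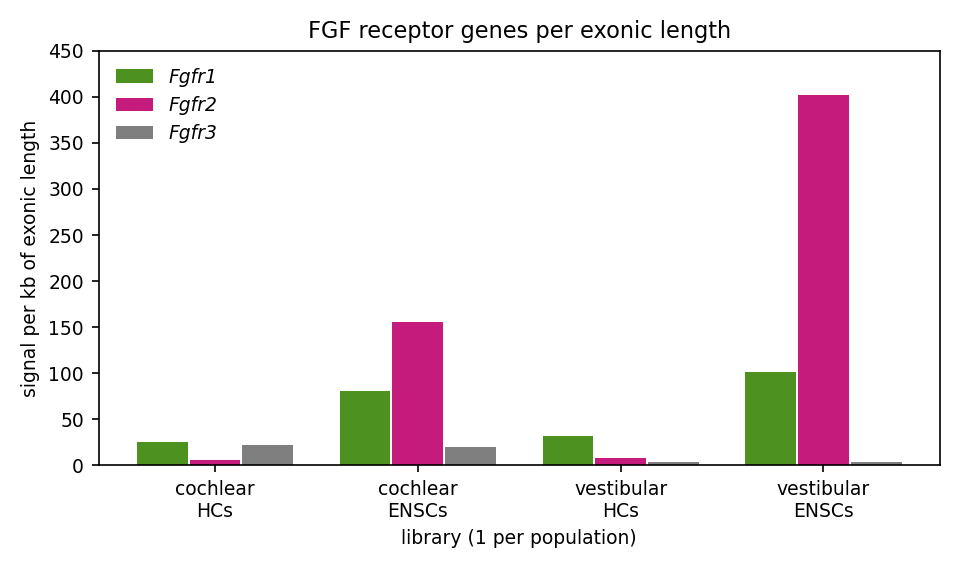
Signal per kb of exonic length of *Fgfr1*, *Fgfr2* and *Fgfr3* in each library (bars, linear axis from 0, 1 library each, no error available). The *Fgfr2* bar is the tallest in both ENSC libraries (156 and 402 per kb) and small in both HC libraries (5.93 and 8.27 per kb), where *Fgfr1* is the tallest.

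Among the response genes, *Spry2* was the more even and *Etv5* the more varied. *Spry2* (ENSMUSG00000022114, chr14:106291166-106296036, minus strand), which encodes a Sprouty inhibitor of receptor tyrosine kinase signalling, had 718.5 in cochlear HCs, 915.25 in cochlear ENSCs, 639.75 in vestibular HCs and 1104.75 in vestibular ENSCs. Both HC libraries were a little lower, with a cochlear log2 ratio of -0.35 and a vestibular one of -0.79, neither of them past 3-fold. *Etv5* (ENSMUSG00000013089, chr16:22381382-22439792, minus strand), the ETS factor, had 144.25, 231.25, 256.5 and 599.75 in the same order. It was 2.34-fold lower in vestibular HCs than in vestibular ENSCs and 2.59-fold lower in cochlear than in vestibular ENSCs, both under 3-fold.

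Of the 8 genes 4, *Fgfr1*, *Fgfr2*, *Spry2* and *Etv5*, were lower by any amount in HCs of both organs, beside 31.9% of all genes. In the cochlea 3 of the 8 genes were at least 3-fold apart, all lower in HCs (*Fgf7*, *Fgfr1* and *Fgfr2*), beside 17.6% of all genes in either direction and 9.2% lower. In the vestibular system 4 were, with *Fgf7* and *Fgf10* higher and *Fgfr1* and *Fgfr2* lower in HCs, beside 28.1% of all genes. With so few genes these counts do not set the FGF genes apart from the rest of the table. The difference between the organs in the HC to ENSC ratio was at least 3-fold for *Fgf7* and *Fgf10*, beside 21.4% of all genes. It was 0.01 on the log2 scale for *Fgfr1*, 0.09 for *Fgfr3*, -0.44 for *Spry2*, -0.54 for *Etv5* and -0.89 for *Fgfr2*. After correction for length and GC content it was 0.63 for *Fgfr1* and 1.12 for *Fgfr3*, and the vestibular HC signal of *Fgfr3* lay in the unranked range.

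Between the organs, 2 of the 8 genes were at least 3-fold apart in HCs, *Fgfr3* higher and *Fgf7* lower in the cochlea, beside 9.3% of all genes (4.21% higher and 5.09% lower). In ENSCs 3 were, all higher in the cochlea (*Fgf7*, *Fgf10* and *Fgfr3*), beside 15.7% of all genes (7.8% higher and 7.94% lower). The remaining 5 genes had ENSC log2 ratios between -1.37 and -0.23, of which those of *Fgf3* and *Fgfr1* turned to 0.49 and 0.11 after correction for length and GC content.

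**Figure D4:**
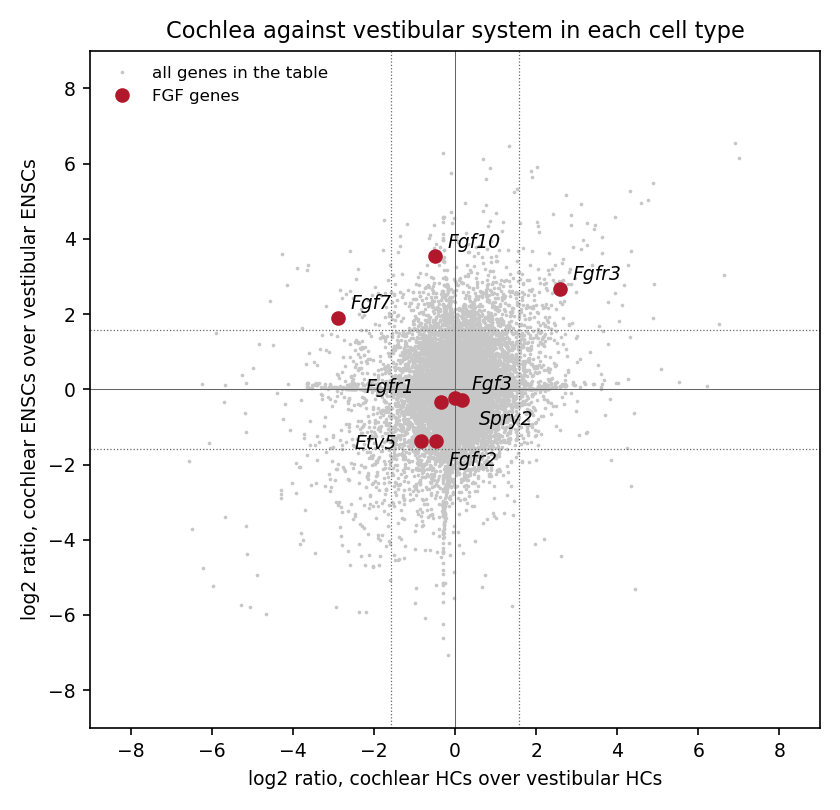
Log2 ratio of the cochlea over the vestibular system in HCs (x axis) against the same in ENSCs (y axis); grey points are all 12814 genes, red points the 8 FGF genes, and dotted lines mark 3-fold. *Fgfr3* is past 3-fold on both axes (2.58 and 2.67), *Fgf10* in ENSCs only (3.54), and *Fgf7* is lower in cochlear HCs and higher in cochlear ENSCs (-2.89 and 1.91). Points are drawn from the signals as deposited; against the top of the unranked range, *Fgf7* in HCs would lie at -2.70 and *Fgfr3* at 2.34.

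The rest of the pathway was described with 7 lists of 88 genes, of which 73 were in the table. Comparing cochlear HCs with ENSCs, 5 were 3-fold or more higher and 16 lower, beside 8.39% and 9.2% of all genes. Among vestibular cells 4 were higher and 23 lower, beside 13.8% and 14.3% of all genes. The 73 genes had a median log2 ratio of -0.46 for the cochlea and of -0.85 for the vestibular system, where all genes had 0 and -0.0045. After correction for length and GC content it was -0.53 and -0.46, with 4 higher and 15 lower in cochlear HCs and 4 higher and 18 lower in vestibular HCs. Among 12799 genes after this correction, 1121 were higher and 1109 lower in cochlear HCs and 1888 and 1285 in vestibular HCs. The corrected medians of all genes were 0.07 and 0.12. Between the organs, 5 of the 73 genes were past 3-fold higher and 9 lower in cochlear than in vestibular HCs, beside 4.21% and 5.09% of all genes. In ENSCs 3 were past 3-fold higher and 8 lower in the cochlea, beside 7.8% and 7.94% of all genes. After correction for length and GC content 5 were higher and 8 lower, beside 896 and 680 of 12799 genes. The 15 list genes *Fgf2*, *Fgf4*, *Fgf6*, *Fgf15*, *Fgf16*, *Fgf17*, *Fgf21*, *Fgf22*, *Fgf23*, *Kl*, *Klb*, *Ndst4*, *Hs6st3*, *Frs3* and *Spry3* were not analysed here.

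**Figure D5:**
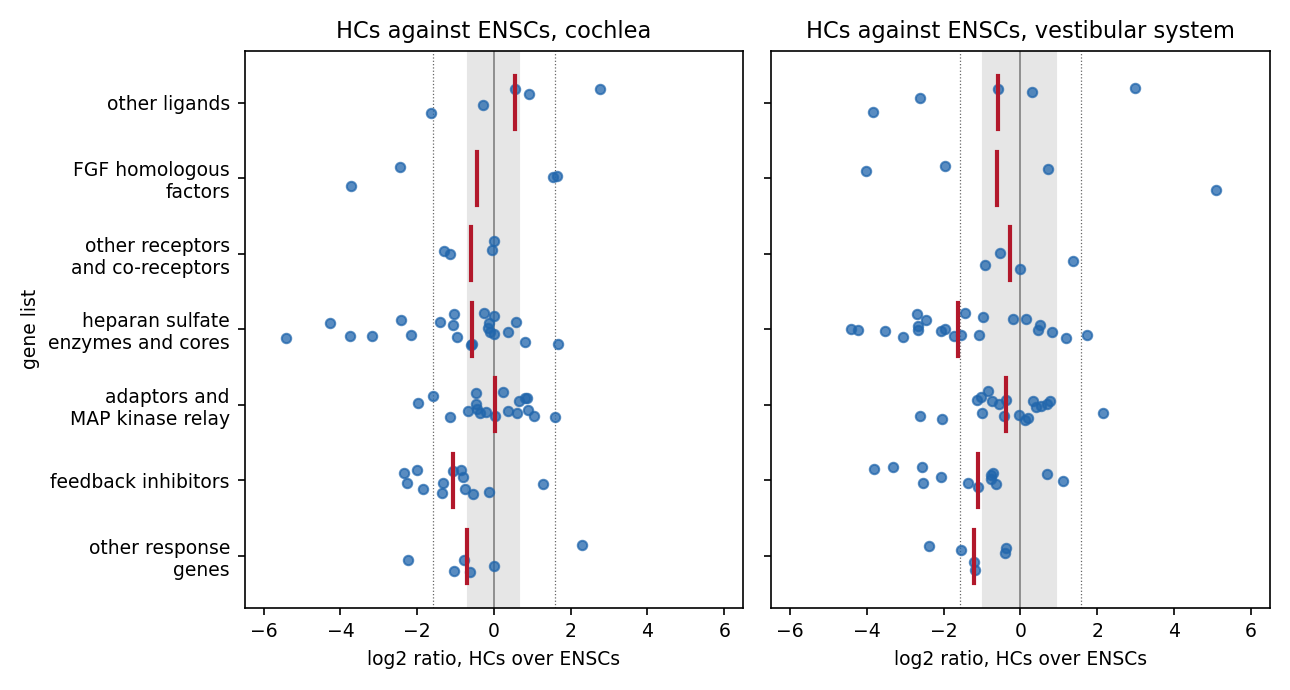
Log2 ratio of HCs over ENSCs for the genes of 7 pathway lists in the cochlea (left) and the vestibular system (right); each point is 1 gene (spread vertically only to separate points), red bars are list medians, grey bands the middle 50% of all genes with their median as a line, and dotted lines mark 3-fold. Feedback inhibitors and heparan sulfate genes lie mostly to the left (cochlear medians -1.08 and -0.58, vestibular medians -1.10 and -1.64).

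The list of feedback inhibitors held the Sprouty, Spred and dual-specificity phosphatase genes, *Il17rd*, and *Flrt1*, *Flrt2* and *Flrt3*, whose proteins bind FGF receptors and are not inhibitors of the pathway by their known role. Of 13 in the table, 12 were lower in cochlear HCs and 11 in vestibular HCs than in the matching ENSCs, beside 46.6% and 50.1% of all genes, with median log2 ratios of -1.08 and -1.10 (-1.17 and -0.96 after correction for length and GC content). Past 3-fold were 4 of them in cochlear HCs and 5 in vestibular HCs, each lower, beside 9.2% and 14.3% of all genes. After correction for length and GC content 4 were lower in each organ. Of the 5 vestibular genes, *Flrt1* and *Flrt2* were among those not known as inhibitors. No gene of the list was 3-fold higher. *Dusp5*, a nuclear phosphatase of ERK, passed in both organs, with 39.5 in cochlear HCs, 160 in cochlear ENSCs, 38.75 in vestibular HCs and 384.5 in vestibular ENSCs. *Il17rd* (Sef), a membrane inhibitor of FGF receptors, had 88, 426.25, 440.25 and 945.75 in that order, and so was 3-fold lower in HCs of the cochlea alone. *Spry4* had 23, 116.5, 141.75 and 232.5, which put cochlear HCs at least 4.80-fold below their ENSCs and vestibular HCs less than 3-fold below theirs. *Dusp6*, the cytoplasmic ERK phosphatase, was under 3-fold in both organs, with 529.5, 901.5, 938 and 1588.75. *Spry4* and *Il17rd* were also lower in cochlear than in vestibular HCs, at least 5.85-fold and by a log2 ratio of -2.32. So were *Spred2*, an inhibitor of RAF activation, and *Flrt3*, a membrane partner of FGF receptors, by log2 ratios of -2.62 and -2.11. These 4 of 13 genes stand beside 5.09% of all genes, *Flrt1* went the other way by at least 3.01-fold, and the median of the list between the HC libraries was -0.08. *Flrt2* was high in vestibular ENSCs, with 283.5 in cochlear HCs, 599.5 in cochlear ENSCs, 160.75 in vestibular HCs and 2255.5 in vestibular ENSCs.

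Among the 6 other response genes, 1 was 3-fold lower in HCs of each organ, *Fos* in the cochlea and *Myc* in the vestibular system, beside 9.2% and 14.3% of all genes. *Fos* had 1295.5 in cochlear HCs, 6104.5 in cochlear ENSCs, 4995.25 in vestibular HCs and 14506.25 in vestibular ENSCs, and *Egr1* had 6745.5, 13898.5, 7269.25 and 16850.75. *Fos* passed 3-fold in the cochlea (log2 ratio -2.24), and *Egr1* in neither organ. Both are induced by many stimuli besides FGF. *Etv1*, an ETS factor of the same subfamily as *Etv5*, went the other way in the cochlea, with 577 in cochlear HCs and 117.25 in cochlear ENSCs (log2 ratio 2.30). Its vestibular signals were 265.75 for HCs and 352.5 for ENSCs. *Myc* reached 341 in vestibular ENSCs and at most 65.75 elsewhere, and its vestibular ratio came under 3-fold after correction for length and GC content.

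Heparan sulfate genes, which make the chains and core proteins that FGFs need to bind their receptors, were lower in HCs for 16 of 22 in each organ, beside 46.6% of all genes in the cochlea and 50.1% in vestibular cells. Of them 6 were 3-fold or more lower in cochlear HCs and 11 in vestibular HCs, and 1 was higher in each organ. The shares of all genes were 9.2% and 14.3% lower and 8.39% and 13.8% higher. The corrected count for vestibular HCs was 9 lower, beside 1285 of 12799 genes. The vestibular median of -1.64 became -0.60 after correction for length and GC content. *Sulf1*, a sulfatase that trims the chains, had 174 in cochlear HCs, 3338.25 in cochlear ENSCs, 163.75 in vestibular HCs and 1902 in vestibular ENSCs. *Gpc3*, a glypican core protein, had 30.75, 1326, 114.75 and 2435.5. The syndecans *Sdc2* and *Sdc4* were lower in HCs of both organs as well, with cochlear log2 ratios of -2.16 and -2.44 and vestibular ones of -4.24 and -3.06. These 4 genes followed the course of *Fgfr2*, with both HC libraries below both ENSC libraries. *Sdc3* was 3-fold higher in cochlear HCs (log2 ratio 1.68). Some genes of chain synthesis were lower in vestibular HCs than in vestibular ENSCs, among them *Ext1*, a polymerase subunit (170.75 against 930.5), and *Ndst1*, a sulfotransferase (181.25 against 1176), and in cochlear HCs they had 762.5 against 819.75 and 179.5 against 471.75. *Hs6st2*, another sulfotransferase, went the other way in vestibular HCs (1076.25 against 321.75), past 3-fold before but not after correction for length and GC content. *Ndst3*, a relative of *Ndst1*, was measured in cochlear ENSCs (315) and was at most 28.75 elsewhere. *Gpc6*, another glypican, had 1075.5, 2258, 833 and 5255 in cochlear HCs, cochlear ENSCs, vestibular HCs and vestibular ENSCs.

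The other ligands were few and weak, and 5 of 14 were in the table. *Fgf20*, a ligand of the prosensory cochlea, had 140.25 in cochlear HCs and 20.75, 24.75 and 20 in the other libraries, at least 6.16-fold above cochlear ENSCs. *Fgf9* had 44 in cochlear HCs, 136 in cochlear ENSCs, 42.5 in vestibular HCs and 261 in vestibular ENSCs and was past 3-fold lower among HCs of either organ (log2 ratios -1.63 and -2.62). *Fgf1* was low in vestibular HCs alone, with 268.5, 183.25, 28.75 and 412. *Fgf5* had 38.75, 20.5, 157.5 and 20, with its highest signal in vestibular HCs as for *Fgf7*, but without the cochlear ENSC signal of *Fgf7*. *Fgf18* did not exceed 29.75.

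The 4 FGF homologous factors, which are not secreted and bind voltage-gated sodium channels, were divided. *Fgf12* had 65.75 in cochlear HCs, 22.5 in cochlear ENSCs, 755 in vestibular HCs and 22 in vestibular ENSCs, a log2 ratio of 5.10 for vestibular HCs over ENSCs and of -3.52 for cochlear over vestibular HCs. *Fgf14* ran the other way, with 23.75, 313, 31.5 and 510.5, and *Fgf13* with 21.5, 117, 24.25 and 94.5. *Fgf11* was 3-fold higher in cochlear HCs (249 against 80) and not in vestibular HCs (101.25 against 61).

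Of the other receptors and co-receptors, 4 of 6 were in the table and none was 3-fold apart between HCs and ENSCs. Among all genes, 17.6% were that far apart for cochlear cells and 28.1% for vestibular cells. A list of 4 genes is too short for this count to set it apart from the rest of the table. *Fgfrl1*, a receptor without a kinase domain, had 155, 159.5, 193.25 and 365, and *Fgfr4* was at the floor in 3 libraries and at 29 in vestibular ENSCs. *Fgfbp3*, a carrier protein that releases FGFs from the matrix, had 220.25 in cochlear ENSCs and 31 in vestibular ENSCs (log2 ratio 2.83). Its vestibular ratio of HCs over ENSCs (79.75 against 31) passed 3-fold only after correction for length and GC content (log2 ratio 1.92). Of the 19 adaptors and MAP kinase genes, 1 was 3-fold higher and 2 were 3-fold lower in HCs of each organ, beside 8.39% and 9.2% of all genes in the cochlea and 13.8% and 14.3% among vestibular cells. Their median log2 ratios were 0.04 and -0.37. After correction for length and GC content 0 were 3-fold higher and 1, *Nras*, was 3-fold lower in each organ. Of 12799 genes, 1121 were then higher and 1109 lower in the cochlea and 1888 and 1285 among vestibular cells. *Braf*, a RAF kinase, had 4437.25 in cochlear HCs, 1461.75 in cochlear ENSCs, 5182 in vestibular HCs and 1172.75 in vestibular ENSCs, and was among the genes under 3-fold after that correction. *Nras* had 947.5, 3715.5, 670.5 and 2775.5. *Mapk3*, which encodes ERK1, had 403 in vestibular ENSCs and at most 91.75 elsewhere.

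Genes whose signals ran most nearly in parallel were found by the distance of log2 signals, centred on their mean over the 4 libraries, among 8973 genes that reached a signal of 100 in 1 or more of them. The 3 nearest to *Fgf10* were *Clic5* (distance 0.24), *Mettl5* (0.42) and *Ankrd32* (0.45), and those to *Fgf7* were *Lipg* (0.37), *Car8* (0.44) and *Zfp874a* (0.48). For *Fgfr1* they were *Mbp* (0.11), *Mpp1* (0.16) and *Tgif1* (0.16), and for *Fgfr2* *Sostdc1* (0.58), *Myo5c* (0.71) and *Enpep* (0.76). For *Etv5* they were *Rnf114* (0.13), *Usp5* (0.15) and *Sh3gl1* (0.16). The 3 genes nearest to *Fgfr3* were all pseudogenes, *Gm6415* (0.11), *Hspa9-ps1* (0.15) and *Gm5778* (0.18). With 4 libraries this likeness describes the shape of the signals alone. *Fgf7* in cochlear HCs and vestibular ENSCs, and *Fgfr3* in vestibular HCs, lay in the unranked range. Their distances rest in part on unranked values.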

How the data were processed

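RNA of sorted cells was amplified with the NuGEN Ovation system per the labels. The authors trimmed reads to their first 50 nt, mapped them to mm9 (TopHat) and took counts over Ensembl genes from HTSeq. Their methods state quantile normalization and then a floor of 20, whereas the label of the deposited values names the floor before the normalization. Versions, annotation release and strand setting are not given in the sources used here. The deposited signal is therefore no raw count, and no count test was run. All 51256 deposited values were multiples of 0.25. The design text speaks of triplicates, but there is 1 column per group, and whether it pools replicates is not stated.

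The 10 symbols and all gene lists were chosen with earlier results of these data known. Log2 ratios were taken without a pseudocount over all 12814 genes (Python 3.11.15, pandas 2.3.3), and the steps were tested on simulated data. Exonic length and GC content came from the GENCODE annotation of mm9, which matched 12799 genes. The correction for length and GC content was a lowess fit (span 0.3, 2 iterations, statsmodels 0.14.6). Named genes were all listed FGF genes, some of the pathway genes past 3-fold in any comparison whose higher signal reached 100, cell type markers, and the 3 nearest profiles of each FGF gene that spanned at least 3-fold. *Dusp6*, *Egr1*, *Ctbp2*, *Fgfrl1*, *Fgfr4* and *Fgf18* were named after their values were seen. Alternatives were a floor of 50, pseudocounts of 20 and 100, a filter at 100, centring on the median ratio, a threshold of 2, low values raised to the top of the unranked range, the length and GC correction, and levels per kb.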

Additional observations from a re-analysis of the deposited data

Results flagged for a closer look

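*Fgf7* moved in opposite directions between HCs and ENSCs of the 2 organs: it was lower in cochlear HCs and higher in vestibular HCs than in the matching ENSCs, by more than 2-fold each way, a difference of 4.80 between the log2 ratios (vestibular minus cochlear). The difference was not tested, since each group has 1 library. In both organs the lower of the 2 signals lay in the range of unranked low values, and with these set to the top of the range the difference was 4.61. The cochlear log2 ratio came to -0.58 with a floor of 50 and to -0.53 with a pseudocount of 100. The vestibular one came to 1.66 and 1.10, so the difference between them shrank in both settings.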

How the results depend on the processing

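No ratio of an FGF gene that was past 3-fold changed its direction in any of the alternatives tried. Of 84 such ratios over 7 alternatives, 16 fell under 3-fold and 0 others rose past it. A higher floor, a pseudocount and the filter at 100 can neither reverse nor enlarge a ratio. Under them the unchanged directions and the 0 gains were fixed in advance. In the cochlea the count of 3 genes fell to 1 with a pseudocount of 20 and to 1 with 100, *Fgf7* and *Fgfr1* being lost. In the vestibular system the count of 4 fell to 2 with a pseudocount of 100. Between HCs the count of 2 fell to 0 with a pseudocount of 100. Between ENSCs the count of 3 fell to 1 with a floor of 50 and to 1 with a pseudocount of 100, and rose to 5 at a threshold of 2. A higher floor or pseudocount shrinks the ratios of low signals by construction. The length and GC correction left the counts within 1.5-fold but turned the vestibular all-gene split of 1762 higher and 1837 lower into 1888 and 1285, and that between ENSCs from 999 and 1018 into 896 and 680. Over all genes, a pseudocount of 100 and a threshold of 2 changed the cochlear count of 2254 to 800 and 4342, the vestibular 3599 to 1402 and 6159, the HC 1192 to 278 and 2690 and the ENSC 2017 to 659 and 4426. A pseudocount of 20 gave 690 in HCs and 1338 in ENSCs, and a floor of 50 gave 687 in HCs. No paired analysis was possible because each group has 1 library, without replicate numbers that could pair them. With no counts of reads, the precision of a signal is unknown, and low signals such as those of *Fgf7*, *Fgfr3* and *Fgf3* are the least certain.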
